A study of Mus musculus with 5 samples.

Results

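A set of 10 genes of gastric acid secretion, of the pepsinogen family and of stomach identity was followed in the pancreas of mice at postnatal day 1. They are Atp4a, Atp4b, Pgc, Cym, Ctse, Gast, Sox2, Sox21, Gkn3 and Kcne2, known from the stomach, and they were chosen with the values of these arrays already known. Each was found by its symbol in the platform annotation, as 1 probe set per gene, so 10 of 19938 genes were followed and all 10 were measured. Pancreata of 2 control mice and 3 Pdx1cKO mice were profiled, 1 Mouse Gene 1.0 ST array per mouse. In Pdx1cKO mice, Elastase-Cre inactivates a floxed Pdx1 in exocrine cells, while endocrine cells and the proximal ducts escape recombination. The controls are labelled as not recombined and come from the same litter as the mutants, and the labels do not say which Cre or floxed alleles they carried. Both groups were dissected as whole pancreas at the same age, so every value below is a bulk value, in which fewer cells of a type and less RNA per cell cannot be told apart. The number of mice, 2 and 3, limits the precision.

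The stomach and the pancreas arise next to each other from the foregut. In the gastric glands, parietal cells pump acid through an H,K-ATPase that needs potassium recycling at the apical membrane, and chief cells release zymogens of aspartic proteases, which acid activates. Newborn rodents make chymosin, a protease that clots milk, before pepsinogen becomes the main gastric zymogen. Mucous neck and surface cells cover the glands with mucins, trefoil peptides and gastrokines, and the G cells of the antrum release gastrin, the hormone that drives acid secretion.

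Over all probe sets, control 2 lay furthest from the mutant arrays. Its log2 values over all probe sets correlated with those of the other 4 arrays at 0.958 to 0.969, whereas correlations among the 3 mutant arrays were 0.988 to 0.992. Control 1 correlated with the mutants at 0.970 to 0.978, so it too lay below the range among the mutants. In control 2, 239 of 19938 genes (1.2%) lay more than 1 log2 above every other array, against 60 genes in control 1 and 48, 60 and 2 genes in Pdx1cKO mice 1, 2 and 3. The pancreas label held in every array: the acinar carboxypeptidase Cpa1 had an intensity of 10406 in control 1, 8231 in control 2 and 1583, 2089 and 3255 in the mutants. The targeted gene, Pdx1, had 67.9 in control 1, 112.7 in control 2 and 48.4, 48.4 and 42.9 in the mutants (log2 fold change -0.91, limma adjusted p = 0.385), and it was lower in all 3 mutants than in both controls.

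Promoter sequences were matched by symbol to RefSeq (GRCm38.p6, 250 bases before to 50 bases after the annotated start), and 8 of the 10 genes had an entry. Those of 4 genes are shown because they carry the contrast described below: Cym and Pgc, protease zymogen genes that were high in control 2 and also above control 1 in every mutant, and Atp4a and Gast, which were high in control 2 alone. They lie at chr3:107221683-107221982 on the minus strand (Cym), chr17:47726592-47726891 on the plus strand (Pgc), chr7:30711959-30712258 on the plus strand (Atp4a) and chr11:100334157-100334456 on the plus strand (Gast). Capitals mark the matches to the motifs searched.
Cym: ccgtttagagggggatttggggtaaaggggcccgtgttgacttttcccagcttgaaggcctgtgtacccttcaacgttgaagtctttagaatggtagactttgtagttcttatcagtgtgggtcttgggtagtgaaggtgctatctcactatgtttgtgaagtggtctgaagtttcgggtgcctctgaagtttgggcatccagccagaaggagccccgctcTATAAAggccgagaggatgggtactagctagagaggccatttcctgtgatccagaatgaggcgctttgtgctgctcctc
Pgc: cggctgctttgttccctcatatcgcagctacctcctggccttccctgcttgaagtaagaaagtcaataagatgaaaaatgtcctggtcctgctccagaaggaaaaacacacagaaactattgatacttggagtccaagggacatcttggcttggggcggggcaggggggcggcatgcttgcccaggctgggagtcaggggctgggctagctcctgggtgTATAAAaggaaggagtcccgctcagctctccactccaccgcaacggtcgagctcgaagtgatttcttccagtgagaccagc
Atp4a: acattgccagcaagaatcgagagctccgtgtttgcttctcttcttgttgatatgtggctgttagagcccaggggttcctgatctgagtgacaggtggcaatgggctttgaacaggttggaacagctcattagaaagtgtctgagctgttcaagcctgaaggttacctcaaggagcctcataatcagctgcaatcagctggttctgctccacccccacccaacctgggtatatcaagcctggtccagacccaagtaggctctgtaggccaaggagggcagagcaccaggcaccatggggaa
Gast: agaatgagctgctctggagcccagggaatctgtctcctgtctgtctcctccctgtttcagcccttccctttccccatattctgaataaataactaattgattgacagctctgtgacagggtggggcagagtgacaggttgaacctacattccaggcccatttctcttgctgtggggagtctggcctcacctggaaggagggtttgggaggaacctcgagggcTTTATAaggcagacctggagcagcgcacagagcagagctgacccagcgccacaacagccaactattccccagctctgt
The promoters were searched on both strands. A match to TATAAA, the box that binds the TATA-binding protein, began 29 bases before the start of Cym, 31 bases before that of Pgc and, on the opposite strand, 28 bases before that of Gast, and 13.6% of 32851 promoters hold this motif. The motif AGATAA of GATA factors, held by 11.2% of promoters, was found in Gkn3, 4 bases before the start. The motif ACAATGG of Sox factors, held by 3.66% of promoters, was in none of the 9 promoter entries of these genes. The same held for TGTTTAC, a motif of Foxa factors that 3.65% of promoters hold. None of the searched motifs overlapped another. The TATAAA match was held by Gast, which was high in control 2 alone, as well as by both zymogen genes.

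All 10 genes had their highest intensity in control 2, and in 6 of them control 2 lay more than 1 log2 above every other array, a rule met by 1.2% of all genes. The genes were chosen by these high values in control 2, so they are given as a description. The median excess of control 2 over the highest other array was 2.26 log2 for the 10 genes and -0.07 log2 for all genes. Sox21 (0.86), Cym (0.49), Sox2 (0.32) and Kcne2 (0.27) did not pass 1 log2, and they fell short in different ways: Cym because the mutants were also high, the others because control 2 itself was only slightly above the rest.

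**Figure D1:**
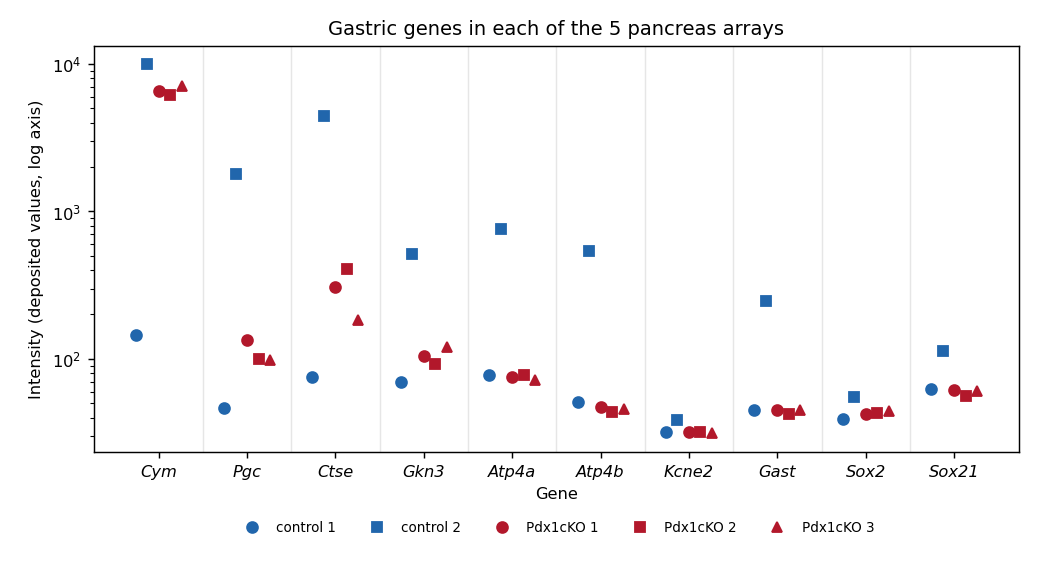
Intensity (log axis) of each of the 10 genes per array, with control mice in blue and mutants in red and a symbol for each replicate. Control 2 is highest for every gene, and for Cym the 3 Pdx1cKO arrays, at 6202 to 7123, lie near control 2 (9981) and far above control 1 (145.3).

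The sharpest departure from the pattern of control 2 was Cym, the gene of chymosin. Cym had intensities of 145.3 in control 1, 9981 in control 2, and 6539, 6202 and 7123 in Pdx1cKO mice 1, 2 and 3. The mutants and control 2 were all high, and control 1 alone was low. The mutants exceeded control 1 by 42.7-fold to 49.0-fold and lay close together, with an SD of 0.101 on the log2 scale (n = 3). Among the 19938 genes, Cym ranked 1 for the gap between the lowest mutant and control 1 (5.42 log2), and the next, Fgg, a fibrinogen chain of the liver, had a gap of 2.90. The ranking was made after the values were seen. Control 2 was 1.51-fold above the geometric mean of the mutants.

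Over all 5 arrays the log2 fold change of Cym, Pdx1cKO minus control, was 2.46 with a standard error of 2.05 and a 95% confidence interval of -3.45 to 8.36 (limma adjusted p = 0.552), because the controls differed from each other by 6.10 log2. Without control 2 it was 5.51 (standard error 0.106, limma adjusted p = 0.00272), and without control 1 it was -0.59 (limma adjusted p = 0.0862). Each of these fits holds a single control, whose spread is taken from the mutants. The fit without control 2 called 995 genes higher (4.99%), so a call of this kind is not rare. The level of Cym in control animals therefore rests on which of the 2 controls is taken.

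Pgc encodes progastricsin, a pepsinogen. Its intensity was 46.4 in control 1 and 1783 in control 2, and it was 133.6, 100.01 and 98.5 in Pdx1cKO mice 1, 2 and 3. All 3 mutants lay above control 1, by 2.12-fold to 2.88-fold, and far below control 2, which was 16.3-fold above their geometric mean. Control 2 exceeded control 1 by 38.4-fold.

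Ctse encodes cathepsin E, an aspartic protease of gastric surface cells that immune cells also make. It had 75.5 in control 1, 4466 in control 2, and 308.6, 408.4 and 182.8 in the mutants. Each mutant exceeded control 1, by 2.42-fold to 5.41-fold, and the SD among mutants, 0.589 log2, was the widest of the 10 genes. Mutant 2 was highest and mutant 3 lowest. All 9 measured liver markers, all 5 erythroid markers and all 8 granulocyte markers were likewise lowest in mutant 3 among the mutants. Their median log2 differences from control 1 in mutants 1, 2 and 3 were 3.90, 4.36 and 2.22 for liver, 1.62, 2.33 and 0.88 for erythroid genes and 2.38, 3.07 and 1.67 for granulocyte genes. Whether these cells contributed to Ctse was not tested.

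Gkn3, a gastrokine of mucous neck cells, was the remaining gene with all mutants above control 1 by over 0.4 log2. It had 69.6 in control 1, 512.0 in control 2, and 104.4, 92.8 and 121.0 in the mutants, which is 1.33-fold to 1.74-fold above control 1. The mutants were closer to control 1 than to control 2.

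In 3 of the 10 genes, Cym, Ctse and Pgc, every mutant lay more than 1 log2 above control 1, a rule met by 92 of 19938 genes (0.461%). Including Gkn3 and Sox2, 5 of 10 lay above control 1 in every mutant, as did 25.5% of all genes. None lay above both controls in every mutant (12% of all genes did), because control 2 was highest throughout. The median difference between the mutant mean and control 1 was 0.06 log2 over the 10 genes and 0.00 over all genes. Without control 2, limma called 1 of the 10 higher, Cym, and 0 lower (10.4% of all genes were lower), and Pgc (log2 fold change 1.24, adjusted p = 0.116), Ctse (1.91, adjusted p = 0.218) and Gkn3 (0.60, adjusted p = 0.231) did not pass in the same limma fit.

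**Figure D2:**
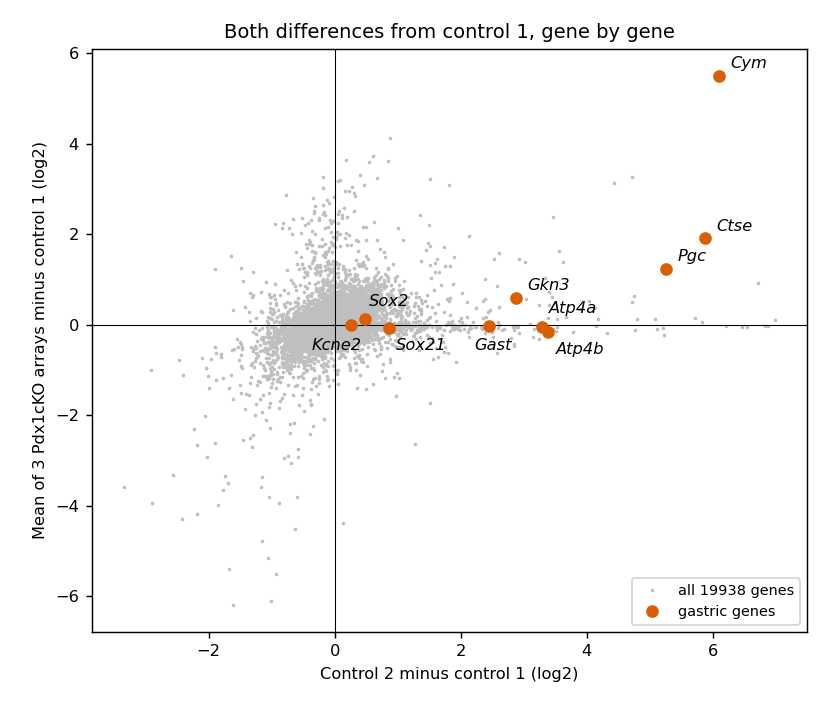
For each of 19938 genes (grey) and the 10 gastric genes (orange), the log2 difference of control 2 from control 1 (horizontal) and of the mean of the 3 Pdx1cKO arrays from control 1 (vertical). Atp4a, Atp4b and Gast lie along the horizontal line at 0, while Cym lies at 6.10 and 5.51, above every other gene on the vertical axis.

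The acid pump behaved otherwise. Atp4a, the catalytic subunit of the H,K-ATPase, had 78.1 in control 1, 762.5 in control 2 and 75.3, 78.1 and 72.3 in the mutants. Atp4b, its glycoprotein subunit, had 51.1 in control 1, 536.1 in control 2 and 46.9, 43.3 and 45.8 in the mutants. For both subunits control 2 alone was high, 9.77-fold and 10.5-fold above the highest other array, and the 3 mutants were at or below control 1. The mutant mean differed from control 1 by -0.05 log2 for Atp4a (limma without control 2, adjusted p = 0.766) and by -0.17 log2 for Atp4b (adjusted p = 0.256 in that limma fit). The 95% confidence interval of that difference was -0.27 to 0.16 for Atp4a and -0.40 to 0.05 for Atp4b.

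Kcne2, which forms a potassium channel with Kcnq1 in parietal cells, was dim everywhere. It had 31.8 in control 1, 38.3 in control 2 and 31.8, 31.8 and 31.2 in the mutants, near the lower quartile of each array (31.2 to 31.9). Control 2 was only 1.20-fold above the rest. The absence of detection calls means that a level above background cannot be claimed for Kcne2 in any array.

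Gast, the gene of gastrin, had 45.3 in control 1, 247.1 in control 2 and 45.3, 42.0 and 45.3 in the mutants. Control 2 was 5.45-fold above the others, and the identical value in control 1 and mutants 1 and 3 is one of the exact ties that 67.7% of probe sets hold. The mutant mean differed from control 1 by -0.04 log2, with a 95% confidence interval of -0.28 to 0.20 (limma without control 2). Fetal islets are known to make gastrin, and values this dim and tied cannot show whether islets gave any here.

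Of the transcription factors, Sox2 lay below the median intensity of every array. Sox2, which keeps foregut progenitors in a stomach and oesophagus programme, had 39.3 in control 1, 54.8 in control 2 and 42.4, 43.0 and 44.0 in the mutants. Sox21, a related Sox factor, had 62.4 in control 1, 113.5 in control 2 and 61.2, 55.6 and 60.1 in the mutants. Control 2 was 1.25-fold and 1.82-fold above the highest other array. Every mutant lay above control 1 for Sox2, by 1.08-fold to 1.12-fold, and below it for Sox21. For Sox21 and Atp4b, every mutant lay below both controls, as in 11.7% of all genes.

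Over all 5 arrays limma called 0 of the 10 genes lower and 0 higher at an adjusted p of 0.05, and 0 of all 19938 genes (0%) in either direction. At an unadjusted p under 0.05, 5.04% of all genes were lower, 5.29% were higher and 0 of the 10 genes passed. The methods' t-test after adjustment called 7 genes lower and 3 higher, none of the 10 among them. With 2 samples against 3, no exact permutation p can be below 0.1. In the fit without control 1, which sets the mutants against control 2, 8 of the 10 were lower (8.94% of all genes were) and 0 higher (8.04% of all genes were), with Cym and Ctse not passing. Since that contrast chose the genes, nothing is read from it.

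Genes of the same gastric cells were taken from marker lists, and the lists share the genes Cym, Pgc, Ctse, Gkn3, Atp4a, Atp4b, Kcne2, Gast, Sox2 and Sox21 with the set above. The shared genes were chosen by their high values in control 2, so the counts of genes high in control 2 partly repeat that choice. Of those that pass below, Gkn3, Pgc, Gast, Atp4a, Atp4b and Ctse are shared genes, and Gkn3 is the only mucous neck gene to pass. Over 13 surface mucous genes, the median excess of control 2 over the highest other array was 3.45 log2, against -0.07 log2 for all genes. Of the 13, 11 lay more than 1 log2 above every other array in control 2, as did 1.2% of all genes. The largest were Gkn2 (6.83), the trefoil peptide gene Tff1 (6.16), Anxa10 (5.50) and Psca (5.12). Of 16 parietal genes 6 did, led by the sodium-proton exchanger Slc9a4 (3.46), then Atp4b, Atp4a and Slc9a2 (2.43). Of 11 chief cell genes only Pga5, a pepsinogen A gene (6.49), and Pgc (3.74) did.

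Mucous neck, endocrine and transcription factor genes were read by the same rule, which 1.2% of all genes met. Of 7 mucous neck genes, 1 passed, Gkn3 (2.08), and the gland mucin Muc6 reached 0.89. Of 12 gastric endocrine genes 2 passed, Gast (2.45) and the antral factor Nkx6-3 (1.36), while Ghrl, the ghrelin gene, was at -0.12. Of 14 stomach transcription factors 2 passed, Foxq1 (1.57) and Nkx6-3.

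Of the squamous, mesenchymal and smooth muscle genes, 1 passed, beside 1.2% of all genes. Of 21 forestomach squamous genes only the cornified envelope gene Sprr1a passed (4.02), and the basal markers Krt5 (0.20) and Trp63 (0.00) did not. Trp63 had exactly the same value, 44.6, in all 5 arrays, a tie that cannot show a difference, and Krt5 was dim everywhere (34.8 to 44.5). None of 13 stomach mesenchyme genes passed, with Barx1 at -0.26, and none of 10 smooth muscle genes did, with Actg2 highest at 0.65, although smooth muscle genes had high intensities in every array, with list medians of 389.0 to 937.4. Intestinal genes did: 9 of 23 passed, led by Clca1 (5.02), Lgals4 (4.74), Alpi (4.26) and Apoa4 (2.44), while the intestinal master factors Cdx1 (0.02) and Cdx2 (0.00) did not. Cdx2 had exactly the same value, 36.6, in all 5 arrays, and Cdx1 had exactly 75.4 in every array but control 2 (76.6). With such ties, these values cannot show whether either factor was present or absent in control 2. The differences between lists were not tested, because all of them come from 1 array.

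**Figure D3:**
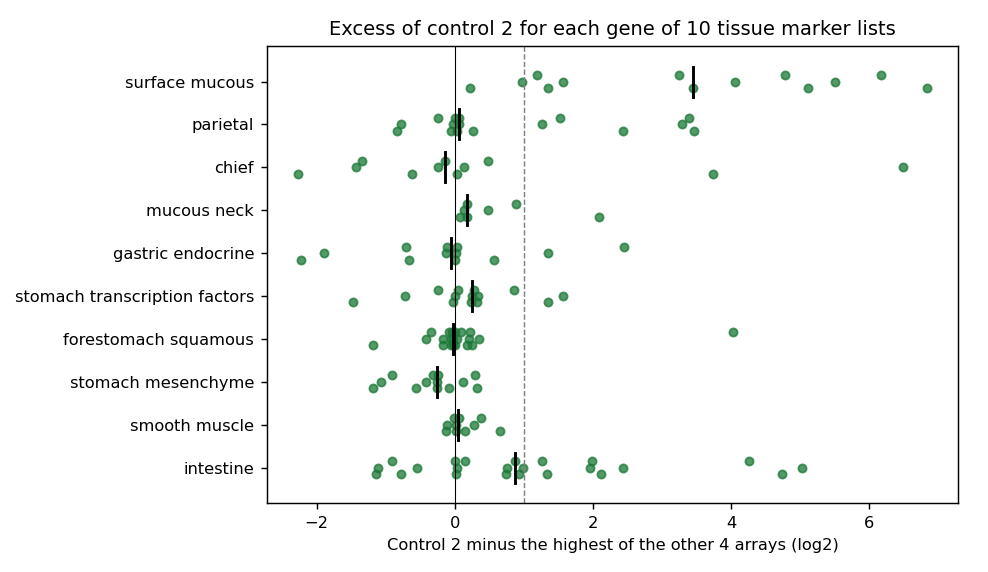
Control 2 minus the highest of the other 4 arrays, on the log2 scale, for each gene of 10 marker lists (points; black bars are list medians; the dashed line is 1 log2). The surface mucous list has the highest median, 3.45, and single genes such as Pga5 at 6.49 stand far from the rest of their lists.

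Outside these lists, the genes with the largest excess in control 2 were 2210407C18Rik (6.88), Lypd8 (6.51), Mucl3 (6.46), Bpifb1 (5.73), Sptssb (5.57) and Cldn18 (5.23), the last a claudin with a stomach form. They were followed by Sectm1b, Cyp2c65, Nqo1, Muc5b, Smim24 and Rep15, at 4.32 to 3.52. On this measure Pgc ranked 22, Ctse 28, Atp4b 29, Atp4a 33, Gast 60 and Gkn3 78 among all genes.

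The same lists were then read for the mutants against control 1, after the values had been seen. In 3 of 11 chief cell genes, every mutant lay more than 1 log2 above control 1, as in 0.461% of all genes. They were Cym, Pgc and Cblif, the gene of gastric intrinsic factor, which rodent chief cells make. Cblif had 45.2 in control 1, 122.9 in control 2 and 122.9, 122.9 and 188.5 in the mutants. The value 122.9 was exactly tied in control 2 and mutants 1 and 2, so the excess of Cblif over control 1 there rests on a tied value. Chia1, an acidic chitinase of mouse chief cells, came near, with 34.5 in control 1, 34.4 in control 2 and 62.0, 67.6 and 92.5 in the mutants, above both controls. Pga5 did not follow them: it had 59.1 in control 1, 5542 in control 2 and 48.0, 61.9 and 61.9 in the mutants. Nor did Tff2, a trefoil peptide gene of gastric glands and of acinar cells, at 2649 in control 1, 2897 in control 2 and 101.2 to 170.7 in the mutants. Bhlha15, a factor of chief and acinar cells, stood more than 1 log2 above every other array in control 1 (305.0), and Nrn1 did so in mutant 2 (288.0).

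In the mucous neck list 1 of 7 genes met the rule, which 0.461% of all genes met. It was Muc6, with 47.2 in control 1, 273.7 in control 2 and 147.7, 136.0 and 107.6 in the mutants. In the surface mucous list it was 1 of 13, Ctse. Gkn2 had 26.4 in control 1, 3014 in control 2 and 25.1 to 26.4 in the mutants, and Tff1 had 54.6, 4029 and 48.2 to 56.2. None of the 16 parietal, 12 gastric endocrine or 14 transcription factor genes met it. In the intestinal list 2 of 23 met it, Olfm4 and Fabp1. Of the markers of other tissues, 7 of 9 liver, 6 of 8 granulocyte and 2 of 5 erythroid genes met it. Their part in the levels of Cym, Pgc, Cblif, Muc6 and Ctse in the mutants was not tested.

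Some parietal and endocrine genes lay lower in the mutants than in both controls. Every mutant lay below both controls in 6 of 16 parietal and 6 of 12 gastric endocrine genes, against 11.7% of all genes. Of the parietal genes, Atp4b, Slc9a4, Kcnj15 and Slc26a9 also lay more than 1 log2 above every other array in control 2. For these the rule rested on control 1 alone, so nothing is read from the parietal count. Many of the gaps to control 1 were small. The highest mutant minus control 1 was -0.12 log2 for Atp4b, -0.03 for Slc9a4, -0.16 for Kcnj15 and -0.06 for Esrrg, all dim in control 1 (39.5 to 51.1). Among the endocrine genes it was -0.003 for Neurog3 and -0.16 for Chgb, but -0.50 for Pax6, -0.87 for Sst, -1.03 for Chga and -1.10 for Ghrl. Among the parietal genes the gap to control 1 was larger for Kcnq1 (-1.09) and Slc26a9 (-1.50). For Kcnq1, Pax6, Chga and Ghrl control 2 was the lower control, so their gap to both controls was smaller than these values. Kcnq1 had 261.8 in control 1, 147.3 in control 2 and 122.6, 121.0 and 107.2 in the mutants. Ghrl, made by islet epsilon cells as well as by the stomach, had 148.0 in control 1, 136.3 in control 2 and 63.7, 69.2 and 58.3 in the mutants, and the groups did not overlap. Slc26a9, an epithelial chloride transporter, had 244.7 in control 1, 700.9 in control 2 and 72.7, 64.7 and 86.2 in the mutants. Hdc, the histamine-forming enzyme of gastric enterochromaffin-like cells, mast cells and granulocytes, went the other way, with 184.5 in control 1, 86.5 in control 2 and 405.5, 352.3 and 314.9 in the mutants. Over the 5 arrays none of these passed limma (log2 fold changes -1.16 for Ghrl, -2.48 for Slc26a9 and 1.49 for Hdc, with adjusted p = 0.183 to 0.361).

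Across the whole array, 24 genes (0.12%) lay more than 1 log2 above control 1 in control 2 and in every mutant, and Cym led them. The next were Olfm4 (smaller gap 2.54 log2), Car2 (2.46), Rbp2 (1.92), Cyp2d26 (1.69) and Myl1 (1.52), and Cblif, Ctse, Muc6 and Pgc were also among the 24. So were Apob, Apoa1, Ccn2, Nr4a1, Tfrc, Sqle, Msmo1, Hmgcs1 and Idi1, so the pattern was not confined to gastric and intestinal genes. Sqle, for 1, had 84.6 in control 1, 217.7 in control 2 and 213.3, 233.0 and 232.0 in the mutants. Olfm4 is a gene of intestinal stem cells and of neutrophils, Car2 is a carbonic anhydrase of red cells, ducts and parietal cells, and Rbp2 is a retinol-binding protein of enterocytes. Olfm4 had 387.0, 480.7 and 235.3 in mutants 1, 2 and 3 and Car2 had 631.0, 868.0 and 319.0, the same order as Ctse. Rbp2 was highest in mutant 1, at 335.9, and lowest in mutant 3, at 171.6.

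The genes differed in which mutant was highest. Cym, Gkn3, Cblif and Chia1 were highest in mouse 3, the mouse with the lowest liver, erythroid and granulocyte values. Ctse was lowest there, and Pgc and Muc6 were highest in mouse 1. The acinar list was lower than control 1 with median differences of -2.13, -1.86 and -1.51 log2 in mutants 1, 2 and 3, and so was least reduced in mouse 3. With 3 mice these orders are descriptions, and the part of other tissues in the level of Cym was not tested.

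**Figure D4:**
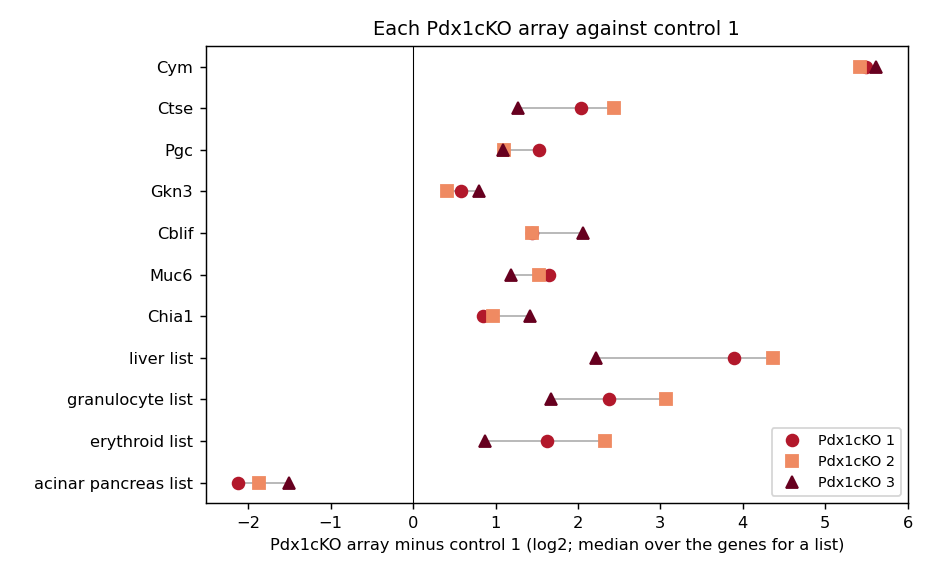
Log2 difference of each Pdx1cKO array from control 1 for 7 gastric genes and, as the median over the measured genes, for the liver, granulocyte, erythroid and acinar lists (grey lines join the 3 arrays; 2 symbols of Cblif coincide). Cym lies at 5.42 to 5.62, and the liver list spreads from 2.22 to 4.36.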

How the data were processed

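Pancreatic total RNA of 2 control and 3 Pdx1cKO mice was hybridised to Mouse Gene 1.0 ST arrays. The authors used GeneSpring GX 12.1, and the deposited table holds linear intensities of 28853 probe sets, already normalized between arrays (medians 61.0 to 61.9). How background was corrected and probes were summarised is not given in the sources used here. No detection calls come with the values, so small differences of dim genes may be background and folds of dim genes may be understated. Log2 was taken with no pseudocount. The 21789 probe sets with 1 gene symbol in the platform annotation were averaged into 19938 genes, while 1621 with several symbols and 5443 unnamed ones were left out. Groups come from the sample titles.

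Pdx1cKO was compared with control by limma 3.58.1 (lmFit and eBayes) in R 4.3.3, with Benjamini-Hochberg adjustment over all genes at 0.05. Python 3.11.15 with pandas 2.3.3 made the descriptive counts. The fit was tested on simulated data with 200 changed genes. Control 2, a single array, was described by its difference from the highest other array, at a threshold of 1 log2, with no test. The members and lists were chosen with earlier results of these data known. The erythroid and granulocyte lists and the comparison of the mutants with control 1 were added after the values were seen. Named genes are the 10 members, the 4 genes per list with the largest excess of control 2, the 12 such genes outside the lists, and Pdx1; others were named after their values were seen. Nothing says that the samples differ by more than the mouse, so p-values measure the spread between these mice. Alternatives were scaling, dim-gene filters, probe set choice, variance models, array weights, the methods' t-test, a replicate block and leaving out each array. Promoters came from RefSeq (GRCm38.p6). The genome build of the array values is not stated in those sources.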

Additional observations from a re-analysis of the deposited data

How the results depend on the processing

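The settings for mutants against control 1 were chosen after seeing the data. Calls depended on the controls. Leaving out 1 array gave 0 to 2072 lower and 0 to 1604 higher genes, and 0 to 8 members lower and 0 to 1 higher, with all of these calls coming from leaving out control 1 (1783 lower and 1604 higher genes, 8 members lower) or control 2 (2072 and 995 genes, 1 member higher). The methods' t-test called 7 genes lower and 3 higher and no member. The log2 fold change of Cym was 2.40 to 2.53 under the alternatives that kept both controls and ranged from -0.59 to 5.51 over the left-out arrays. It turned negative without control 1 (-0.59, limma adjusted p = 0.0862) and passed without control 2 (5.51, limma adjusted p = 0.00272, against 0.00272 to 0.925 over its alternatives). The sign also turned without control 2 for Pgc (1.24), Ctse (1.91), Gkn3 (0.60) and Sox2 (0.13), whose values without control 1 were -4.02, -3.97, -2.28 and -0.35. The replicate numbers showed no sign of pairing the mice: deviations of same-numbered arrays correlated at 0.03 and 0.00. With 2 controls, the deviations of one are the negatives of the other, so this check cannot settle whether mice were paired. With the replicate block limma called 0 genes, 605 lower and 859 higher at an unadjusted p, and gave Cym 2.40 (limma adjusted p = 0.733).

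Control 2 lay above every other array by more than 1 log2 in 6 of the 10 genes under every scaling and every left-out array. Over all genes the count was 81 at 2 log2, 531 at 0.5 log2 and 138 above the median level. With dim genes left out at the median level the counts were 3 parietal, 5 surface mucous, 0 gastric endocrine, 1 transcription factor and 5 intestinal genes. At 2 log2 they were 1 gastric endocrine, 0 transcription factor and 5 intestinal genes, and at 0.5 log2 they were 2 mucous neck, 1 smooth muscle and 14 intestinal genes. Mucous neck genes numbered 1 to 2 over the left-out arrays (2 without control 1 or without Pdx1cKO 1). Of the 10 genes, 1 lay over 2 log2 above control 1 in every mutant, against 12 of all genes, and 433 of all genes did so at 0.5 log2. Leaving out a mutant gave 93 to 201 of all genes at 1 log2, with 201 without Pdx1cKO 3. Cym stayed at 5.45 to 5.56 log2 above control 1. With no detection calls, the signal over background of the dim genes Kcne2, Sox2 and Gast is unknown.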
